A study of Mus musculus with 8 samples.

Results

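The loci of Srebf1, Fasn and Scd1, 3 genes of hepatic fat synthesis, were examined for cytosine methylation in mouse liver. Their members were the HpaII sites listed in all 8 samples within a fixed mm9 window around each gene, 191 sites of 1310003 in the series. The Srebf1 window, from 60.005 to 60.045 Mb of chromosome 11, held 74 sites. The Fasn window, from 120.66 to 120.695 Mb of chromosome 11, held 69, and the Scd1 window, from 44.46 to 44.49 Mb of chromosome 19, held 48. By the running number that the files give each HpaII site, 1 further site of the Srebf1 window and 1 of the Fasn window lay between listed sites and were not analysed here. All samples were liver DNA of C57BL/6J mice on a high-fat diet (HFD). In 4 mice the diet was supplemented with lingonberries, and 4 mice received it alone. The labels give no sex, age, dose or duration, and every mouse ate the high-fat diet, so no sample stands for a mouse on normal chow.

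Lipogenesis in the liver turns dietary carbon into fatty acids. Srebf1 encodes SREBP-1, a membrane-bound transcription factor that is made as isoforms 1a and 1c from separate transcription starts and, once cleaved, enters the nucleus and activates genes of fatty acid synthesis. Fasn encodes fatty acid synthase, the enzyme that builds palmitate from malonyl-CoA, and Scd1 encodes stearoyl-CoA desaturase, which places a double bond in saturated fatty acids. Fasn and Scd1 are both classical SREBP-1 targets in hepatocytes. Methylation of CpGs at a promoter is commonly low where a gene can be transcribed.

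HELP-tagging reads methylation with HpaII, which cuts CCGG only if its inner CpG is unmethylated, against MspI, which cuts it regardless. The m-score of a site runs from 0, where no HpaII tag was found (methylated end), to 100, where tags came from HpaII alone (unmethylated end). It ranks a site only against others in its own sample, since 1 MspI reference had been brought to the HpaII total of every sample. The lingonberry samples held 6104751 to 16060380 HpaII tags over the common sites and the HFD samples 5858601 to 7411193, so 3 lingonberry libraries were deeper than every HFD library. The tags come from PCR with no molecular identifiers named. In bulk liver, a shift in cell makeup and a shift in methylation within cells cannot be told apart. The labels do not say how the mice were housed or batched, so every p-value below rests on the spread among these 8 animals alone.

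The starts of Srebf1 and Fasn were located in the mm9 data by the spacing of CCGG in the RefSeq promoters (GRCm38.p6). Of the 3 Srebf1 starts in RefSeq, the first fell at position 60036085 of chromosome 11, the second 1954 bases downstream and the third 12110 bases downstream. The Fasn start fell at position 120685863. The second Srebf1 promoter holds a single CCGG, which has 40 possible places in the window, so it was put at the offset shared by the first and the third. The promoter table used here names no isoform for these starts. Scd1 was not matched in the promoter table, so its sites are described by cluster.

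The 250 bases before the first and the third Srebf1 start and before the Fasn start are shown because they carry the CCGG sites, in capitals, whose methylation was read at these promoters. They are RefSeq sequence of the minus strand, 5′ to 3′, at chr11:60222582-60222831, chr11:60210472-60210721 and chr11:120824548-120824797 of GRCm38.p6.
Srebf1 start 1: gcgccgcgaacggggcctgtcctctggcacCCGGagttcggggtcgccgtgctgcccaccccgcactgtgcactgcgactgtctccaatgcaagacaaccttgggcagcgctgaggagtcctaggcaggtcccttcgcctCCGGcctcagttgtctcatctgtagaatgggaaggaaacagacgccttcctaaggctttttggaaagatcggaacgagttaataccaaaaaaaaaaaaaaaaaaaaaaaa
Srebf1 start 3: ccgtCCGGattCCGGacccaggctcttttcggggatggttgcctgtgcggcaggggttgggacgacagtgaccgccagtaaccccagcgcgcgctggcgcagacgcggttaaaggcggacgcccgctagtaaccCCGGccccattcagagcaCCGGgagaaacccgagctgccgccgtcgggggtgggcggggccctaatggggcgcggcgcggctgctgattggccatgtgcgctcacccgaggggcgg
Fasn start: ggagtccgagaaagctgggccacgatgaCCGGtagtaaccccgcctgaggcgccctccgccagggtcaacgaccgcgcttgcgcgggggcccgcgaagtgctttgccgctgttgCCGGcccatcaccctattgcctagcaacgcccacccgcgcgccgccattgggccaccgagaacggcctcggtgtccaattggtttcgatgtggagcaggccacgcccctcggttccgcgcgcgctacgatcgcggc

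The 3 stretches differ in CpG content. The Fasn stretch has 33 CpGs and the third Srebf1 start has 30, more than 96.0% and 94.1% of the 32851 RefSeq mouse promoters of the same length. The first Srebf1 start has 16, more than 74.6% of them, and the median promoter has 6. CCGG, the letters the assay can read, occurs in 47.05% of those promoters. The Fasn stretch carries it 2 times, the first Srebf1 start 2 times and the third 4 times.

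Letters known from promoters of this pathway were searched on both strands. CCAAT (the NF-Y box; ATTGG on the other strand) occurs in 33.85% of all promoters. In the Fasn stretch it begins 90, 62 and 59 bases before the start, the last 2 matches overlapping on opposite strands. It also begins 166 bases before the first Srebf1 start and 30 bases before the third. GGGCGG (the GC box bound by Sp1) is in 32.74% of promoters and begins 65 and 6 bases before the third Srebf1 start. It also occurs 2 times before the second. Neither CACGTG (1 form of the E-box, in 6.02%) nor TCACNCCAC (1 form of the sterol regulatory element, in 1.05%) is found in any of the 4 windows. Other forms of these 2 elements were not searched, so the promoters are not shown to lack them.

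The CCGG sites in these promoters were largely unmethylated on both diets. The 2 sites before the Fasn start, 133 and 219 bases upstream, had mean m-scores of 77.0 and 81.3 over the 8 mice. The 2 before the first Srebf1 start, 107 and 217 bases upstream, had 79.0 and 77.3. Before the third Srebf1 start, the sites 95 and 113 bases upstream had 72.2 and 78.6, and a site 236 bases upstream had 52.8. That last site varied most of these, and its partner 7 bases further upstream was 1 of the 2 unlisted ones. In the lingonberry mice its m-scores were 68.4, 72.5, 73.0 and 51.8 (11, 8, 5 and 4 HpaII tags). In the HFD mice they were 23.4, 56.9, 0 and 76.2 (1, 3, 0 and 7 tags). Its group difference of 27.3 was the largest upward one in the Srebf1 window, but the groups overlapped, the tags were few, and limma gave an unadjusted p of 0.143 and an adjusted p of 0.873.

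The 3 loci were less methylated than the series as a whole. Of the 191 sites, 48 (25.1%) had a mean m-score of 75 or more, 62 (32.5%) lay from 25 to 75 and 81 (42.4%) lay below 25. Over all sites of the series the shares were 10.1%, 26.9% and 63.0%. Srebf1 had 21, 27 and 26 sites in these classes, Fasn 18, 19 and 32, and Scd1 9, 16 and 23. No HpaII tag was found in any mouse at 13 sites, 6 of them at Srebf1, 4 at Fasn and 3 at Scd1. A count of 0 allows up to 3 tags in a sample. At some of these 13 sites the MspI reference was small too, with 1 tag at Fasn position 120660615 and 2 at Srebf1 position 60044372. At others it was larger, as with 42 at Fasn position 120668601. Of the 191 sites, 32 had fewer than 10 MspI tags. These shares describe windows around 3 genes against all sites and were not tested. Of the 191 sites, 40 had 5 or more other listed sites within 500 bp, against 148084 of 1310003 in the series. Among such dense sites, 47.1% at Srebf1, 81.25% at Fasn and 42.9% at Scd1 were at 75 or more, against 51.9% over the series. With 1 to 4 neighbours the shares were 26.1%, 7.32% and 18.75%, against 7.19%. How far site density accounts for the shares was not tested.

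Along Fasn, unmethylated sites were concentrated around the start. The 18 sites within 1 kb of it averaged 81.6 ± 2.53 in the lingonberry mice and 80.8 ± 1.14 in the HFD mice (SD, n = 4 each), and 15 of them were at 75 or more. The 8 sites upstream, toward Ccdc57, had 15.3 ± 2.11 and 16.4 ± 5.63, with 7 of them below 25 and 1 at a mean of 83.7. The other 32 sites of the gene had 18.0 ± 1.86 and 18.8 ± 3.00, with 23 below 25. The 11 sites beyond its end, toward Dus1l, rose again to an intermediate 46.5 ± 6.26 and 44.1 ± 9.43. The 18-site block at the start thus stood between mostly methylated flanks in both diets.

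The first and the second Srebf1 start were unmethylated too, the third lay below 75, and the gene held more intermediate sites. The first start had 80.7 ± 4.99 with lingonberries and 82.3 ± 0.90 on HFD (5 sites), the second 78.4 ± 1.73 and 76.0 ± 1.57 (10 sites), and the third 74.3 ± 1.70 and 72.4 ± 7.79 (4 sites; SD, n = 4). The highest site at the third start, with a mean of 89.8 at 60024241, rested on 1 MspI tag. The other 3 sites there had 69.7 ± 4.06 with lingonberries and 66.0 ± 11.4 on HFD. Between and after the starts, however, the 34 remaining sites of the gene had an intermediate mean of 38.3 ± 5.27 and 38.0 ± 3.66, with 6 at 75 or more, 15 from 25 to 75 and 13 below 25. The difference from Fasn's gene body, 14.8 to 24.5 with a median of 20.2, was above 0 in 8 of 8 mice. Upstream, toward Tom1l2, 11 sites had 17.8 ± 1.97 and 18.8 ± 3.39, and the 10 beyond the gene's end, toward Rai1, had 38.5 ± 1.19 and 39.3 ± 0.651. Those 10 were mixed, with 3 at 75 or more, 2 from 25 to 75 and 5 below 25. Gene ends were set from the first start by the RefSeq (GRCm38.p6) gene length, and exon or intron positions on mm9 are not known here.

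At Scd1, the largest cluster of sites was intermediate to unmethylated, with lower m-scores than the Fasn start. Its 11 sites (chr19:44481756-44482894) had m-scores of 71.3 ± 2.99 with lingonberries and 69.7 ± 0.987 on HFD (SD, n = 4), with 4 of them at 75 or more and 7 from 25 to 75. The 19 sites of the other 3 clusters averaged 39.5 ± 3.19 and 38.6 ± 3.00, and the 18 sites outside clusters 21.6 ± 1.36 and 22.3 ± 3.79. RefSeq lists no other gene within 30 kb of Scd1. Whether the largest cluster holds the Scd1 promoter was not tested.

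**Figure D1:**
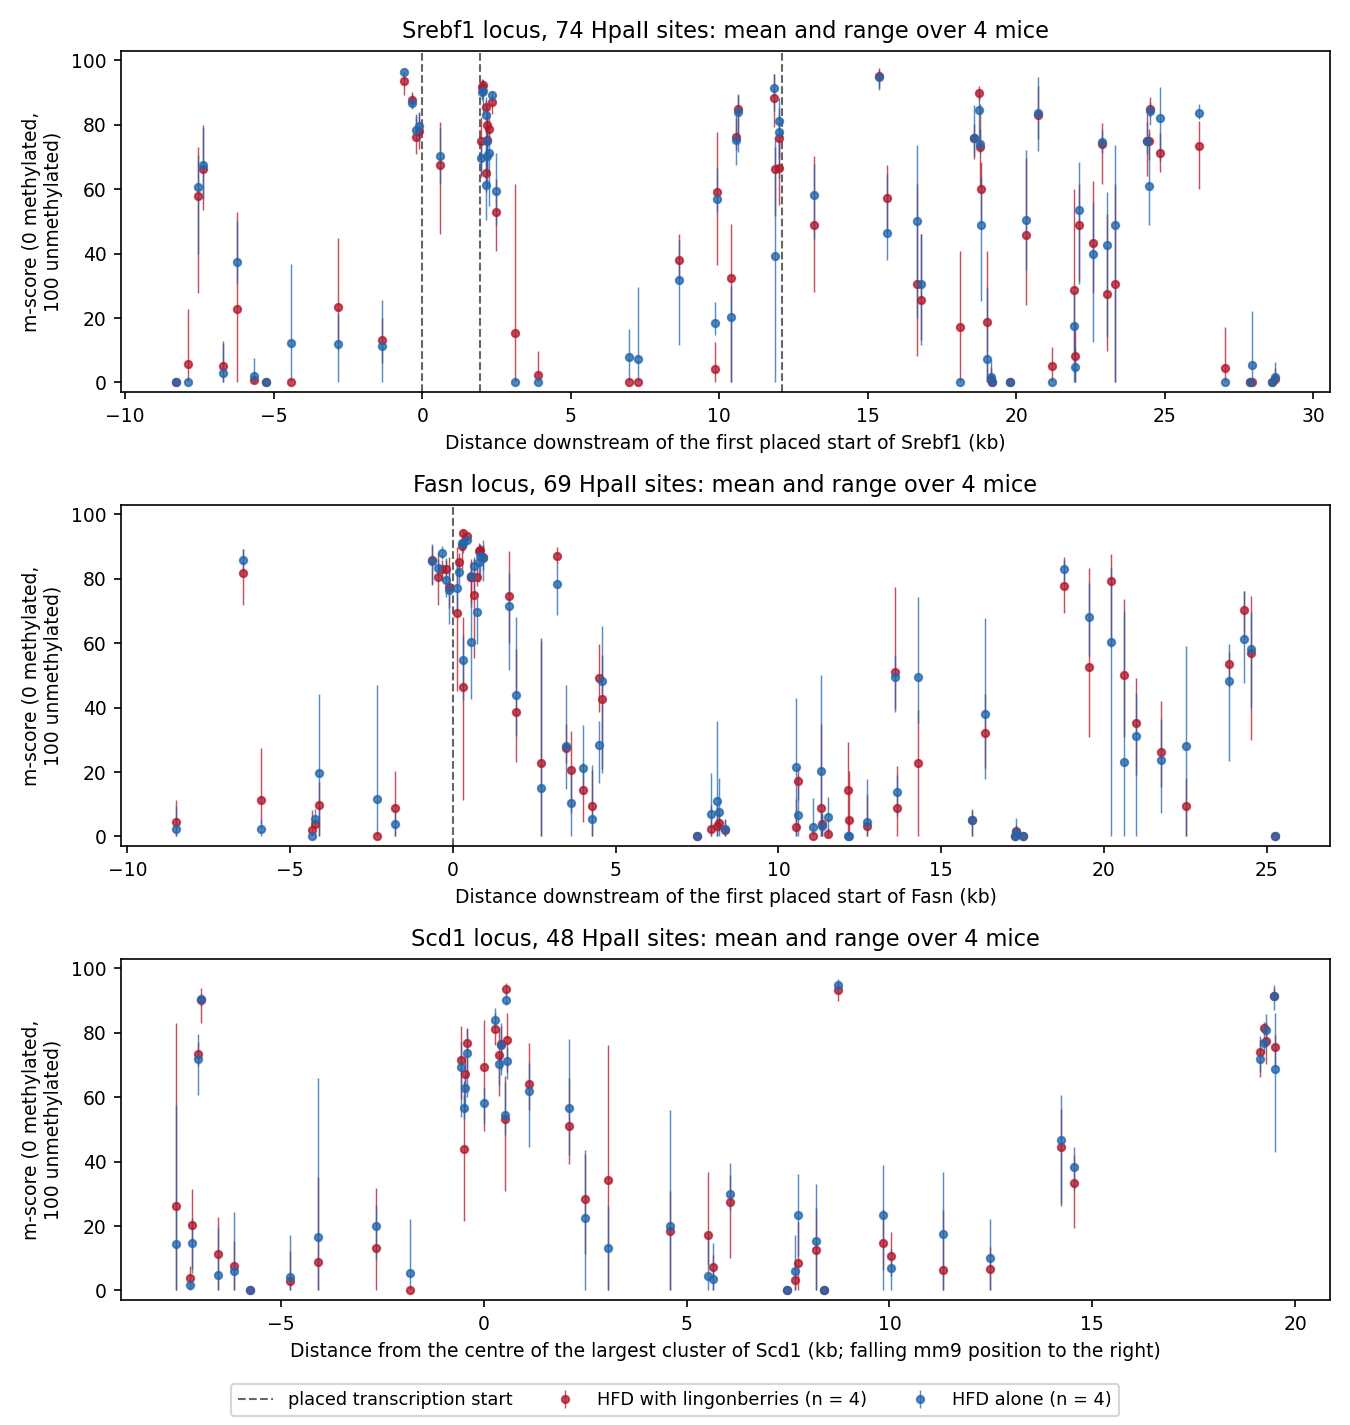
Mean m-score (vertical axis, 0 methylated to 100 unmethylated) of each HpaII site against its distance in kb from the first placed start (Srebf1, Fasn) or from the centre of the largest cluster (Scd1); points are means of 4 mice, bars run from the lowest to the highest mouse, and dashed lines mark the placed starts. The 18 sites around the Fasn start form a block at a mean m-score near 81.2 between mostly methylated flanks. Srebf1 has raised points at each of its 3 starts and points from methylated to unmethylated within the rest of the gene.

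**Figure D2:**
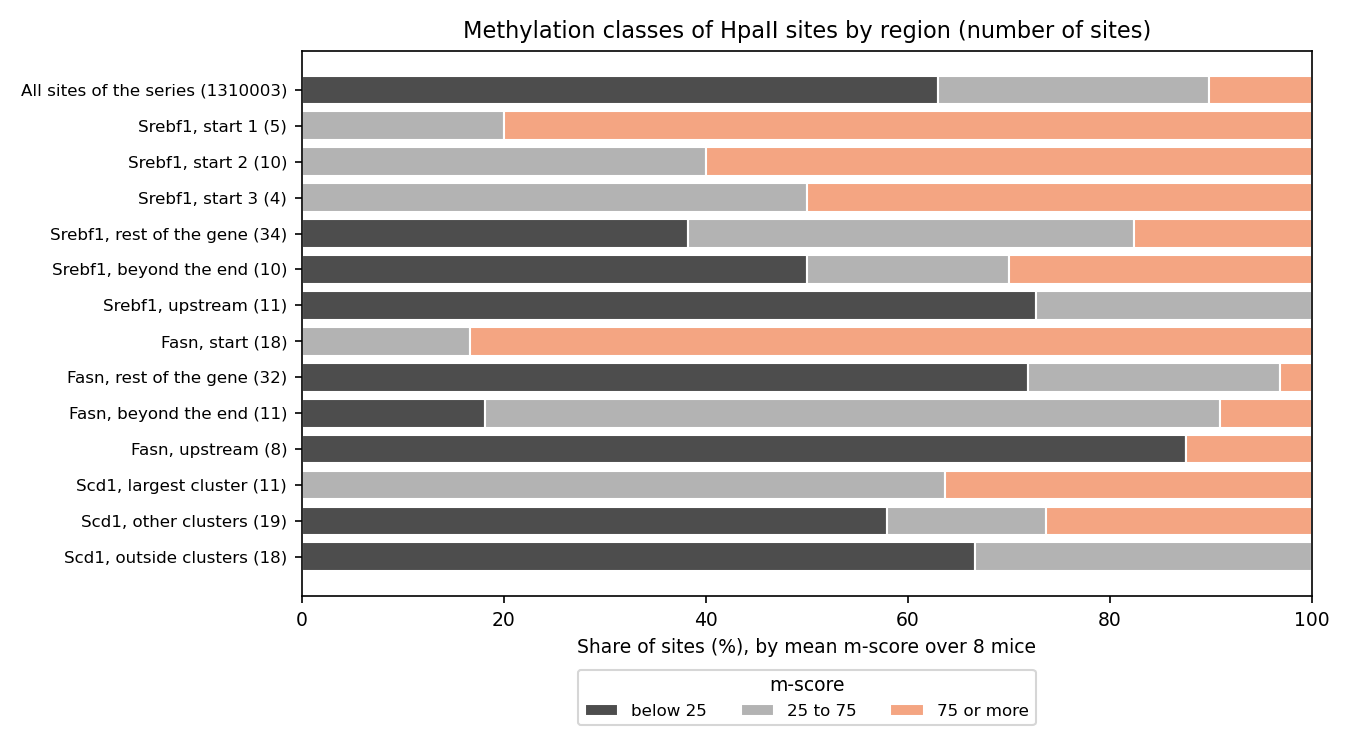
Share of sites (horizontal axis, %) with a mean m-score over 8 mice below 25, from 25 to 75 or at 75 or more, by region, with the number of sites in brackets. No site within 1 kb of a placed start falls below 25, against 63.0% of all sites of the series.

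The question of the design was whether lingonberries changed liver methylation on a high-fat diet. No site, window or cluster of these 3 genes passed the test. Averaged over its window, Srebf1 had m-scores of 45.5, 43.1, 44.5 and 48.8 in the lingonberry mice and 42.8, 46.0, 45.7 and 46.8 in the HFD mice, a difference of 0.188. Fasn had 36.7, 37.7, 38.3 and 42.6 against 37.2, 39.4, 40.7 and 37.6, a difference of 0.105. Scd1 had 38.0, 40.9, 40.5 and 41.0 against 37.1, 38.2, 42.5 and 40.8, a difference of 0.467. In all 3 windows the groups overlapped, and each difference was smaller than the SD of either group (1.44 to 2.60). Lingonberry mouse 4 had the highest mean of its group at all 3 loci.

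These values can be set beside the average site, which was lower with lingonberries. Over all sites of the series the lingonberry mean was 25.5 ± 0.713 and the HFD mean 26.8 ± 0.564, a difference of -1.22. Isolated sites, with no other listed site within 500 bp, differed by -2.19, sites with 1 to 4 neighbours by -1.09 and sites with 5 or more neighbours by 1.91. Split the same way, the densest sites of the 3 loci had higher lingonberry means. The 17 such sites of Srebf1 had 65.6, 67.0, 64.1 and 62.8 in the lingonberry mice against 61.8, 62.6, 62.5 and 60.7, so the groups did not overlap (difference 2.95). No share of non-overlap over like sets of sites was computed. All sites of this class in the series already differed by 1.91, so the separation is not read as particular to Srebf1. The 16 of Fasn differed by 1.07 and the 7 of Scd1 by 2.88, both with overlap. The sparser classes of the loci did not all go the way of the series. Isolated sites differed by 0.589 at Srebf1 (11 sites), -5.38 at Fasn (12) and -1.64 at Scd1 (9), and sites with 1 to 4 neighbours by -0.927 (46), 1.33 (41) and 0.530 (32), all with overlap. With each sample centred on sites of the same density class, the locus differences were 0.755 for Srebf1, 0.693 for Fasn and 1.33 for Scd1. These are larger than the uncentred differences and below the SD of the uncentred means in either group. The SD of the centred means was not computed. The diet difference thus varied with site density in the whole series. Library depth differed between the groups, and its part in the values at these loci was not tested.

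Site by site, limma called 0 of the 191 members at an adjusted p below 0.05 (Benjamini-Hochberg over all sites), against 0.0134% of all sites. The smallest adjusted p of a member was 0.873. At an unadjusted p below 0.05 there were 9 members (4.71%), 2 at Srebf1, 5 at Fasn and 2 at Scd1, beside 4.17% of all sites. All lingonberry mice lay above all HFD mice at 3 member sites and below them at 3, together 3.14%, beside 0.66%, 1.3% and in sum 1.96% of all sites. Of the 191 sites, 94 (49.2%) had a higher mean with lingonberries, 84 (44.0%) a lower one and 13 had no tag, beside 38.5% higher and 46.5% lower over all sites. The share below an unadjusted 0.05 is near that of the series, and the 6 sites without overlap are split evenly between the directions.

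Of the Srebf1 sites, the smallest unadjusted p was at position 60026221, 9864 bases into the gene, a methylated site. The lingonberry mice had m-scores of 4.05, 0, 0 and 12.6 (2, 0, 0 and 4 HpaII tags) and the HFD mice 18.1, 14.8, 16.3 and 25.0 (4, 3, 3 and 6 tags). The lingonberry mice were all below the HFD mice, but on at most 6 tags in a sample (limma difference -14.4, 95% interval -24.5 to -4.27, unadjusted p = 0.0121, adjusted p = 0.873). The next site, at 60033891 and 240 bases past the second start, went the other way and had more tags. It had 82.9, 78.7, 81.9 and 76.5 (53, 26, 19 and 24 tags) against 74.4, 66.0, 75.3 and 65.0 (15, 10, 13 and 11 tags), a difference of 9.83 (interval 2.73 to 16.9, unadjusted p = 0.0137, adjusted p = 0.873 by limma). The third, at 60009919 beyond the end of the gene, had 81.1, 60.0, 76.8 and 75.5 against 84.1, 82.3, 86.6 and 81.7, all lingonberry mice being lower (unadjusted p = 0.0548). The highest mean m-score of the window, 95.1 at 60020720, rested on 2 MspI tags in the reference.

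At Fasn the smallest unadjusted p was at position 120681386, 4477 bases into the gene. Its m-scores were 38.6, 47.7, 59.8 and 50.0 in the lingonberry mice (12, 10, 9 and 11 tags) and 16.5, 25.7, 36.0 and 35.6 in the HFD mice (2, 3, 4 and 5 tags). The groups did not overlap, with a difference of 20.6 (95% interval 5.47 to 35.7, limma unadjusted p = 0.0147, adjusted p = 0.873). Of the other 4 Fasn sites with an unadjusted p below 0.05, 3 lay in the unmethylated block at the start and 1 lay further into the gene, and the lingonberry mean was higher at 3 and lower at 1. At 120685109, 754 bases past the start, the lingonberry mice had 82.3, 77.7, 84.4 and 77.7 and the HFD mice 73.8, 59.8, 70.9 and 74.1, without overlap (unadjusted p = 0.0193 by limma). At 120685320, 543 bases past the start, they had 85.3, 72.9, 85.2 and 78.9 against 58.0, 42.7, 67.2 and 73.5, with overlap (unadjusted p = 0.0218 by limma). At 120686206, 343 bases before the start, the order was inverse, with 79.2, 81.9, 85.3 and 85.9 against 86.5, 86.3, 88.5 and 90.3 (unadjusted p = 0.0382 by limma). At 120682662, 3201 bases into the gene, they had 86.6, 85.0, 89.8 and 87.5 against 81.7, 85.3, 77.5 and 68.7, with overlap (unadjusted p = 0.0402 by limma). The last 2 sites are the fourth and the fifth by p and were added to the 3 after their values were seen. The highest mean m-score of the window was 92.7, at 120685441 and 422 bases past the start.

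At Scd1 no site separated the groups. The smallest unadjusted p was at position 44463086, in the cluster at the low end of the window, with 82.6, 79.1, 83.3 and 81.2 against 77.3, 77.6, 73.9 and 79.1 (limma difference 4.56, unadjusted p = 0.0238, adjusted p = 0.873). Its HpaII tags were partly fractional, meaning that they are shared with other places in the genome. In the largest cluster, position 44481790 had 94.2, 92.8, 95.5 and 91.7 against 89.9, 88.6, 89.7 and 92.8 (difference 3.28, unadjusted p = 0.0496 by limma). The third, 44476810, had 7.80, 12.5, 36.7 and 12.2 against 17.5, 0, 0 and 0, on 5 tags in the lingonberry group and 1 in the HFD group (unadjusted p = 0.136). The highest mean m-score, 94.1 at 44473584, rested on 3 MspI tags.

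**Figure D3:**
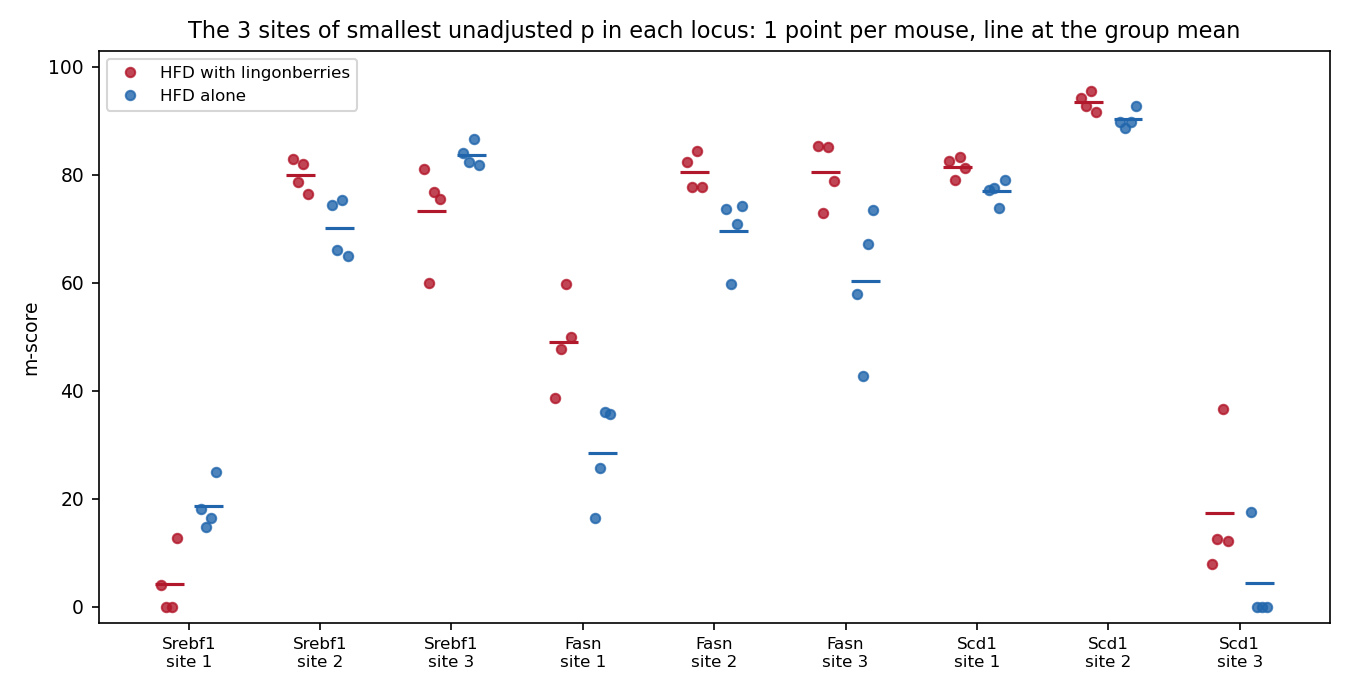
m-scores (vertical axis) of the 4 lingonberry and 4 HFD mice at the 3 sites of smallest unadjusted p in each locus, numbered from the smallest p, with a line at each group mean. The groups are separate at Srebf1 sites 1 to 3 and Fasn sites 1 and 2 and overlap at the other 4, and no site passed the adjusted threshold.

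Clusters, defined as 5 or more listed sites with gaps of at most 500 bp, pool more tags. The 3 loci held 12 of the 29006 clusters, numbered here from high to low position in each locus. None of the 12 passed the limma test, against 0.0% of all clusters, where an unadjusted p below 0.05 was reached by 2029 (7.0%) and by none of the 12. The lingonberry mean was higher in 8 and lower in 4, with a median difference of 1.19. Over all clusters 59.2% were higher and the median difference was 0.655.

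The most precise of these values were those at the gene starts. Fasn cluster 1, the 18 sites at the start (chr11:120684924-120686517), had 80.6, 80.4, 80.1 and 85.4 in the lingonberry mice (1211, 692, 428 and 807 HpaII tags) and 79.7, 80.0, 82.1 and 81.4 in the HFD mice (479, 425, 397 and 525 tags). Lingonberry mouse 4 stood above all others, and the remaining 7 mice lay between 79.7 and 82.1. The difference was 0.805 (95% interval -2.47 to 4.08, adjusted p = 0.919 by limma). Without lingonberry mouse 4 it was -0.454, and with each sample centred on sites of the same density it was -0.769, so its sign is not settled.

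Srebf1 cluster 1, the 10 sites that follow the second start (chr11:60033592-60034100), had 80.3, 79.4, 77.1 and 76.8 (635, 359, 235 and 321 tags) against 75.3, 76.8, 77.7 and 74.2 (222, 231, 210 and 210 tags). HFD mice 2 and 3 lay above the lowest lingonberry mouse, and the difference was 2.35 (interval -0.767 to 5.48, adjusted p = 0.746 by limma). Centred on site density it was 0.446. A difference between diets was not detectable at either start, and the intervals do not show that the diets act alike.

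Srebf1 cluster 3 was the 1 cluster of the 12 in which the groups did not overlap, beside 3.98% of all clusters (2.89% in this direction). Its 8 sites (chr11:60016896-60017991) lie 18094 to 19189 bases into the gene and range from a mean m-score of 0 to 87.3. All but the one at 60017991 are among the 17 dense Srebf1 sites given above, so that separation and this one share sites. The lingonberry mice had 42.6, 48.2, 39.8 and 37.4 and the HFD mice 37.3, 37.0, 35.7 and 36.3, a difference of 5.45 (interval -1.77 to 12.7, adjusted p = 0.746 by limma). Lingonberry mouse 4 was above the highest HFD mouse by less than 1 unit. Over its sites with at least 10 MspI tags the difference was 2.51, centred on density it was 3.92, and without lingonberry mouse 2 it was 3.39. The other clusters of Srebf1 were intermediate, with differences of 0.446 for cluster 2 (adjusted p = 0.993) and -2.99 for cluster 4 (adjusted p = 0.942), both of which changed sign when single mice were left out.

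Inside the Fasn gene, cluster 2 (chr11:120681285-120683154) had 34.2 ± 4.35 with lingonberries and 29.4 ± 4.58 on HFD (SD, n = 4 each), a difference of 4.77 (adjusted p = 0.794 by limma). The difference was 2.51 without HFD mouse 2. The cluster contains the site of smallest p at Fasn. Clusters 3 and 4, further into the gene, were close to fully methylated. Cluster 3 had 2.06, 2.53, 2.82 and 2.18 against 1.62, 3.20, 8.56 and 8.77, on 2 to 7 tags per mouse, and its adjusted p of 0.736 was the smallest of the 12. Its difference of -3.14 was -2.13 without HFD mouse 3 and -2.06 without HFD mouse 4. Cluster 4 had 4.84, 2.61, 10.0 and 4.74 against 6.44, 6.59, 7.79 and 19.8 (adjusted p = 0.769). Its difference of -4.59 was -1.39 without HFD mouse 4.

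The Scd1 clusters overlapped throughout. The largest, cluster 2, had 69.1, 73.7, 68.4 and 74.1 (673, 458, 231 and 448 tags) against 69.5, 70.9, 68.6 and 70.0 (246, 246, 208 and 299 tags), a difference of 1.58 (95% interval -2.37 to 5.52, adjusted p = 0.856 by limma). Lingonberry mice 2 and 4 were above every HFD mouse, while mouse 3 was below all of them. The difference was 0.772 without mouse 2, 0.661 without mouse 4 and 0.759 with density centring. Cluster 4, an unmethylated block of 5 sites at the low end of the window, had 80.0 ± 1.47 and 78.0 ± 3.88 (unadjusted p = 0.31 by limma). Its difference of 2.09 was 0.476 without HFD mouse 4. Cluster 1 differed by 3.61 (adjusted p = 0.863), and by 0.756 without lingonberry mouse 3. Cluster 3 differed by -3.67 (adjusted p = 0.835), and by -1.34 without HFD mouse 4.

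**Figure D4:**
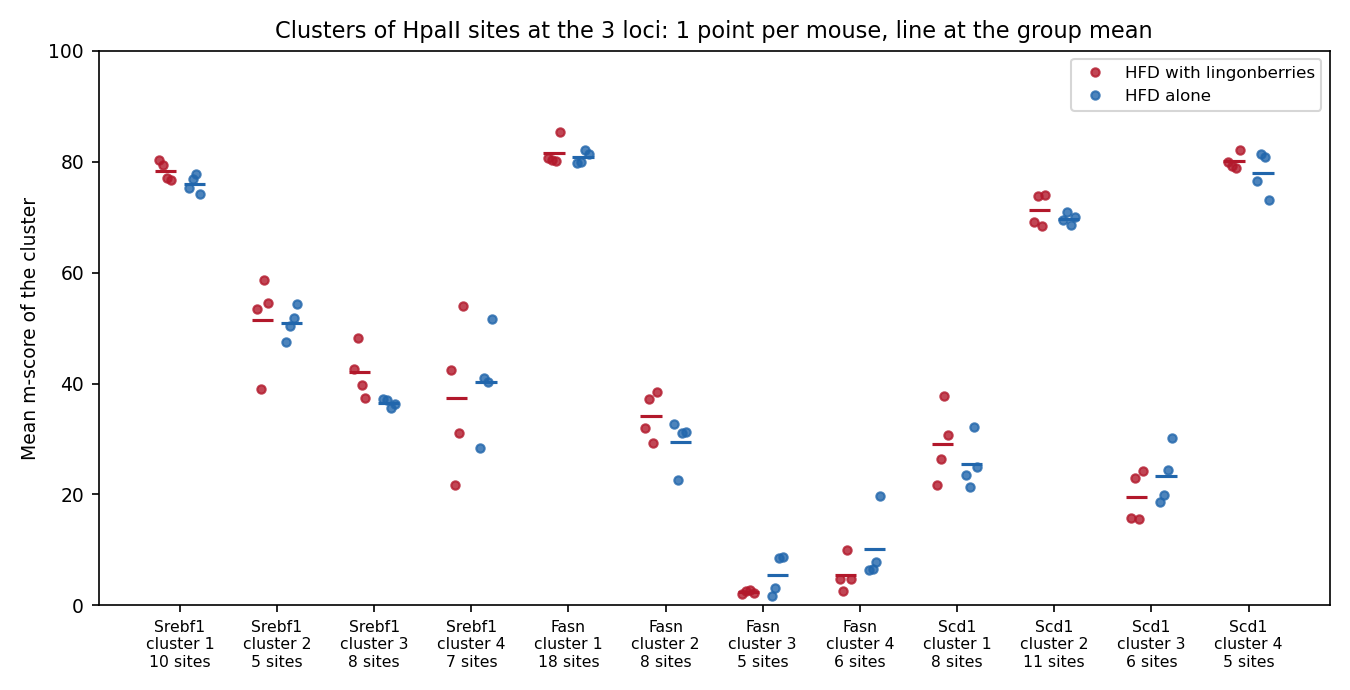
Mean m-score (vertical axis) of each of the 12 clusters in the 4 lingonberry and 4 HFD mice, with a line at each group mean. The points of the 2 diets overlap in 11 clusters, and only in Srebf1 cluster 3 do all lingonberry mice lie above the HFD mice.

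Fixed 1 kb windows regroup the same sites, and many hold a single site, so they repeat the site values in part. Of the 81 windows with member sites, 0 were called by limma, against 0.0154% of all windows, and the smallest adjusted p was 0.858. The smallest unadjusted p was 0.0518 at Fasn, 0.058 at Srebf1 and 0.27 at Scd1, so none was below 0.05, beside 4.44% of all windows. The groups did not overlap in 2 windows, beside 2.14% of all (0.523% with lingonberries higher, 1.62% lower). The Fasn one, 120682001 to 120683000, had 44.7, 42.4, 48.4 and 45.0 against 40.6, 40.5, 41.5 and 33.0, lingonberries being higher. The Srebf1 one, 60009001 to 60010000, had 40.6, 38.7, 38.4 and 37.7 against 42.0, 41.2, 43.3 and 40.9, lingonberries being lower. It averages 2 sites, the one at 60009919 given above and one at 60009048 with a mean m-score of 2.17. This separation is therefore that of site 60009919 and not a further one. Differences ran from -18.5 to 11.6 in the 31 Srebf1 windows, from -26.6 to 23.1 in the 30 of Fasn and from -11.2 to 13.6 in the 20 of Scd1, so single windows of 1 or few sites varied widely in both directions.

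Other genes of the pathway were read where their promoter could be placed by the same spacing match. This held for 9 of 28 listed genes (23 were in the promoter table), with 38 sites: Acly, which supplies acetyl-CoA, Me1, which supplies NADPH, Elovl5, a fatty acid elongase, Mlxipl, which encodes ChREBP, Nr1h2, which encodes LXR-beta, Pnpla3, a lipid droplet protein, and Scap, Insig2 and Mbtps2, which escort, retain and cleave SREBPs. None of the 38 sites was called in either direction and 3 had an unadjusted p below 0.05, beside 4.17% of all sites. All 9 promoters were on the unmethylated side, with means from 69.6 to 81.0, 7 of them at 75 or more. Placing required at least 3 listed CCGG sites in the promoter, so promoters poor in CCGG could not enter. Sites of the series with 5 or more neighbours had a median m-score of 75.7, so a level of this size is common at dense sites. The lingonberry mean was higher in 8 and lower in 1 (Pnpla3), with a median difference of 1.95. Over all sites of the series with 5 or more neighbours, 64.0% were higher and the median difference was 1.49 (single sites, not promoter means). At Me1 the groups did not overlap, with 79.2, 81.9, 76.5 and 81.1 against 67.3, 73.7, 72.6 and 76.2 over 3 sites. No share of non-overlap over all promoters was computed, and the share was 1.96% for single sites and 3.98% for clusters.

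By the mean absolute difference in promoter m-score over the 8 mice, the placed genes closest to the Fasn start were Insig2 (1.90 units) and Elovl5 (2.85). Those closest to the first Srebf1 start were Elovl5 (2.99) and Insig2 (3.27). The third Srebf1 start was closest to Scap (3.78) and Acly (5.89), and the second, read from 1 site, to Mbtps2 (6.51) and Acly (7.28). For the largest Scd1 cluster they were Acly (3.94) and Scap (5.79). Promoters of hepatocyte genes (0 of 8 listed) and of leukocyte genes (0 of 4) could not be placed, and of the 4 stellate and endothelial genes Kdr alone was, at 75.2 ± 2.94 and 73.9 ± 2.78 (SD, n = 4). The labelled tissue was therefore not checked by marker promoters.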

How the data were processed

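Liver DNA of 8 mice (4 per diet) was profiled by HELP-tagging. Per the submitters' processing notes, the build was mm9 and CASAVA was used. For the aligner and tag filters, the sources used here name nothing. Per the file headers, the authors deposited an m-score per HpaII site, a score from 0 to 100, and a conf value, treated as a signal. Their meaning was worked out from the values. HpaII tags were recovered as conf times the sine of the m-score angle, and were whole within 0.02 at 96.1% to 97.0% of sites above 0. Fractional tags, read as shared between places, occurred at 11.3% of sites. Depth is given with the results, and limits on tags cover counting error only.

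Sites listed in all 8 samples, 1 kb windows and clusters were each tested with limma 3.58.1 (R 4.3.3; empirical Bayes with a mean trend) on the m-score over the whole series, with Benjamini-Hochberg adjustment and a threshold of 0.05. The fit was also run on simulated tags that varied by counting error alone, which cannot show how it handles spread between mice. Locus means have no test. Groups came from the diet labels, and the labels give no batch or pairing. Named per locus were every cluster, the 3 sites of smallest unadjusted p and the site of highest mean. Sites with the lowest mean are given by count. Starts were placed from RefSeq promoters (250 bases before, 50 after): list genes needed 3 listed CCGG sites, at most 2 unlisted ones and a single best place. Alternatives varied the MspI minimum, the HpaII minimum, the scale (log2 tags per 1000000, pseudocount 0.5 or 2), the density centring and the mice left out. Members and lists were chosen with earlier results of these data known.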

Additional observations from a re-analysis of the deposited data

Results flagged for a closer look

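In 74 groups of 4 mice, the lowest and the highest value were compared with the nearest other mouse of the group. Of these groups, 5 held a value further away than the 95% limit allows. Chance would give about 3.7 if the groups were independent and normal, which was not tested. A group with all but 1 mouse at 0 is flagged whatever the remaining value. Lingonberry mouse 4 was high in Fasn cluster 1, at the start of the gene, with 85.4 beside 80.6 for the next mouse. HFD mouse 2 was low in Fasn cluster 2, with 22.6 beside 31.1. HFD mouse 4 was high in Fasn cluster 4, with 19.8 beside 7.79. At Scd1 position 44476810, lingonberry mouse 3 had 36.7 beside 12.5, and HFD mouse 1 had 17.5 where the other HFD mice had 0, on 1 or 2 HpaII tags in each of these mice.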

How the results depend on the processing

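No site, window or cluster of the 3 loci was called under any alternative run. The locus mean differences stayed within the spread between mice of the main run. Leaving out each mouse in turn gave -0.914 to 0.982 for Srebf1, -1.15 to 0.818 for Fasn and -0.381 to 1.41 for Scd1, so their sign is not settled. Density centring gave 0.755, 0.693 and 1.33, and Fasn was -0.179 with at least 10 MspI tags. Of the 12 clusters, 9 kept their sign throughout. Fasn cluster 1 became -0.769 with density centring, and -0.454 to 1.31 with each mouse left out. Srebf1 cluster 2 became -0.085 on log2 tags, and -1.98 to 4.58 with each mouse left out (negative without lingonberry mouse 1, 3 or 4 or HFD mouse 1). Srebf1 cluster 4 ran from -8.52 to 2.20 (positive without lingonberry mouse 2 or HFD mouse 4). The cause was not tested. Over the whole series, the 176 called sites of 1310003 became 90 with at least 10 MspI tags (920252 sites tested), and 216 to 699 with each mouse left out. They became 0 with at least 1 HpaII tag (1093534 sites tested) and 0 with a mean of at least 10 HpaII tags (223697 sites tested). The main fit held 196368 sites without a tag in any mouse, and their part in the calls was not tested. The 128 called windows became 38 with at least 10 MspI tags, 0 with 3 or more sites, and 186 to 451 with each mouse left out. No paired analysis was possible because the labels give no replicate numbers, and the mouse numbers used here follow the order of deposit and tie no mouse to another.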
